A study of Mus musculus with 4 samples.

Results

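The AMPA and NMDA receptor subunit genes are the subject here: Gria1, Gria2, Gria3 and Gria4, which encode the AMPA receptor subunits GluA1 to GluA4, and Grin1, Grin2a, Grin2b, Grin2c, Grin2d and Grin3a, which encode subunits of the NMDA receptor. They were taken by name, 10 of the 33696 gene features in the deposited matrices, and all 10 were found (ENSMUSG00000020524, ENSMUSG00000033981, ENSMUSG00000001986, ENSMUSG00000025892, ENSMUSG00000026959, ENSMUSG00000059003, ENSMUSG00000030209, ENSMUSG00000020734, ENSMUSG00000002771 and ENSMUSG00000039579, in the same order). The study made single-nucleus RNA-seq libraries from mouse brain 21 days after photothrombotic (PT) injury, in which light activates the dye Rose Bengal in the vessels of the cortex and so causes a small stroke. The control library (genotype label WT) and the Cxcl12-cKO library [Col1a2(creER); Cxcl12(flox)] each pooled 1 male and 1 female mouse, and every mouse of both groups had the injury. In the Cxcl12-cKO mice a tamoxifen-inducible Cre driven by the Col1a2 promoter, a fibroblast promoter, acts on a floxed Cxcl12 allele. The study's methods state that tamoxifen was given in repeated courses after the injury and set a general age range, from young to mature adult, for all experiments. They allow several kinds of control, tamoxifen-induced littermates without Cre or with a single floxed allele and uninduced mice among them, and the age and kind of control of these 4 mice were not given in the labels. Lesion and surrounding parenchyma were dissected apart, tagged and pooled, so that each library yielded a lesion matrix and a parenchyma matrix.

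Both receptor families are glutamate-gated channels that assemble as tetramers in the postsynaptic membrane. AMPA receptors carry the fast component of excitatory transmission, and the presence of GluA2 keeps most of them impermeable to calcium. NMDA receptors need the obligatory GluN1 subunit together with GluN2 or GluN3 subunits. GluN2 subunits set their kinetics and their magnesium block, and GluN3A lowers calcium flow and magnesium block. In the cortex, GluA2-poor AMPA receptors are well known from interneurons, GluN2B from young neurons and from receptors outside the synapse, and glia carry some of these receptors too.

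GluA2 has its effect on calcium through one position of the pore loop, the Q/R site. The genomic codon there encodes glutamine, and the enzyme ADAR2, encoded by Adarb1, edits the Gria2 transcript so that arginine is read. The stretches around that codon are shown because the share of Gria2 among AMPA subunit transcripts is one of the results below. They are the coding strand, 5′ to 3′, of the GENCODE vM21 transcripts (build GRCm38), 45 bases each, with the Q/R codon in capitals.
Gria1: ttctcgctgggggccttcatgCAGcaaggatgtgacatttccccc
Gria2: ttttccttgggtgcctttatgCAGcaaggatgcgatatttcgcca
Gria3: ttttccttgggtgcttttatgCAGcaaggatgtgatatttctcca
Gria4: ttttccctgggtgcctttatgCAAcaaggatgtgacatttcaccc
The Gria1 codon is codon 600 of the Gria1-201 transcript, in exon 11 of 16, on the plus strand at chr11:57243094-57243096. The Gria2 codon is codon 607 of Gria2-201, in exon 11 of 16, on the minus strand at chr3:80706911-80706913. For Gria3 it is codon 612 of Gria3-201, in exon 11 of 16, on the plus strand at chrX:41610265-41610267. For Gria4 it is codon 608 of Gria4-201, in exon 12 of 17, on the minus strand at chr9:4464137-4464139. Gria2 and Gria3 shared 42 of the 45 bases, Gria1 shared 36 with each of those, and the other pairs shared 39. The genome carries a glutamine codon in all 4 genes, written CAA in Gria4 and CAG in the others. The libraries count the 3′ ends of transcripts, so they show how much of each subunit RNA was present and not whether the site was edited.

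The 4 matrices held 23489 barcodes, of which 21743 were kept after the 2.5% tails of UMIs and genes and the top 2.5% of mitochondrial share were removed. The parenchyma matrices held 62701074 UMIs (control) and 62749811 UMIs (Cxcl12-cKO), with medians of 15915 and 16648 UMIs per nucleus kept. Lesional nuclei of all classes together were shallower, with medians of 2962 and 2975 UMIs. The gap was smaller within a class. Excitatory-neuron-like nuclei, named below, had medians of 17461 and 18390 UMIs in the parenchyma and 13636 and 12781 in the lesion. In all, 47 barcodes occurred in both libraries but none in both regions of a library. Nuclei that carried both Xist and Y-linked UMIs, which nuclei of 1 mouse should not have, made up 9.75% to 14.3% of a matrix and were not removed. Levels are UMIs per 1000000 UMIs (CPM) of all genes in the same summed nuclei. Cxcl12 was 106 CPM in lesional fibroblast-like nuclei of the control library and 215 CPM in the same class of the Cxcl12-cKO library. That goes against the label. The deleted exons were not given and 3′ counts may lie outside them, so this checks neither label, and every genotype value below is that of the library labelled so.

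Classes were named from markers and carry the ending "-like"; the 10 genes took no part in the clustering. In the parenchyma, 2161 (control) and 2042 (Cxcl12-cKO) nuclei were excitatory-neuron-like, of which 1347 and 1272 fell into a named subtype, and 281 and 297 were interneuron-like. The lesion held only 447 and 215 excitatory-neuron-like and 78 and 55 interneuron-like nuclei, besides glia, 4156 and 4077 fibroblast-like and 1793 and 2302 myeloid-like nuclei. Levels were taken from the summed UMIs of a class, region and library. They are compared within a gene, between classes, regions, libraries or mice. Where several members of a class are listed together, their levels are not to be compared with each other. With 1 library per genotype, genotype and library cannot be told apart, and genotypes and classes were not tested. Nuclei of the 4 mice could be told apart by sex, so the subunit shares of excitatory-neuron-like nuclei were tested between regions within mice. Intervals are exact, at 95%, and cover counting error only. A gene counted as past the fold where its ratio was at least 1.5 either way with an interval that left out 0 on the log2 scale, among genes with at least 50 UMIs over both sums. Levels are given as control library first and Cxcl12-cKO library second, here and throughout.

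The AMPA subunit genes divided the neuron subtypes of the parenchyma sharply, and each of the 4 did so differently. Gria1, whose product is inserted at synapses in long-term potentiation, was highest in interneurons of the Sst and Pvalb types. Its level was 2671 and 3021 CPM in Sst interneuron-like, 1960 and 2176 in Pvalb interneuron-like and 1503 and 1602 in striatal-projection-neuron-like nuclei. It was lowest in middle-layer-like nuclei, with 486 and 456 CPM, and in near-projecting-like nuclei, with 435 and 460, which overlapped. Over the 10 subtypes, 2 of 9 neighbouring pairs in the order of Gria1 levels overlapped between libraries.

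Gria2, the calcium-limiting subunit, had the narrowest spread of the 4. It ran from 1969 and 1951 CPM in layer-5-like nuclei and 1908 and 1915 in corticothalamic-like nuclei down to 1119 and 1107 in Adarb2 interneuron-like and 1026 and 1161 in Sst interneuron-like nuclei. All 3 interneuron types lay below all 7 other subtypes in both libraries.

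Gria3 and Gria4 ran nearly opposite to each other among excitatory-neuron-like nuclei. Gria3 was 1521 and 1512 CPM in upper-layer-like, 1562 and 1547 in layer-5-like and 1501 and 1652 in corticothalamic-like nuclei, whose range over the libraries overlapped both others. It was far lower in the other excitatory subtypes, with 443 and 415 CPM in middle-layer-like, 459 and 549 in near-projecting-like and 478 and 424 in layer 6 intratelencephalic-like nuclei. Gria4, a subunit with fast kinetics, was 3139 and 3198 CPM in layer 6 intratelencephalic-like, 1984 and 2045 in middle-layer-like and 1962 and 2100 in near-projecting-like nuclei. It was only 329 and 397 CPM in layer-5-like and 582 and 617 in corticothalamic-like nuclei. The 3 excitatory subtypes rich in Gria4 were thus the 3 poor in Gria3, and upper-layer-like nuclei were intermediate in Gria4, at 1060 and 1063 CPM. Pvalb interneuron-like nuclei had 2177 and 2416 CPM of Gria4 and 1009 and 1022 of Gria3. Adarb2 interneuron-like nuclei had little Gria3, 333 and 349 CPM.

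**Figure D1:**
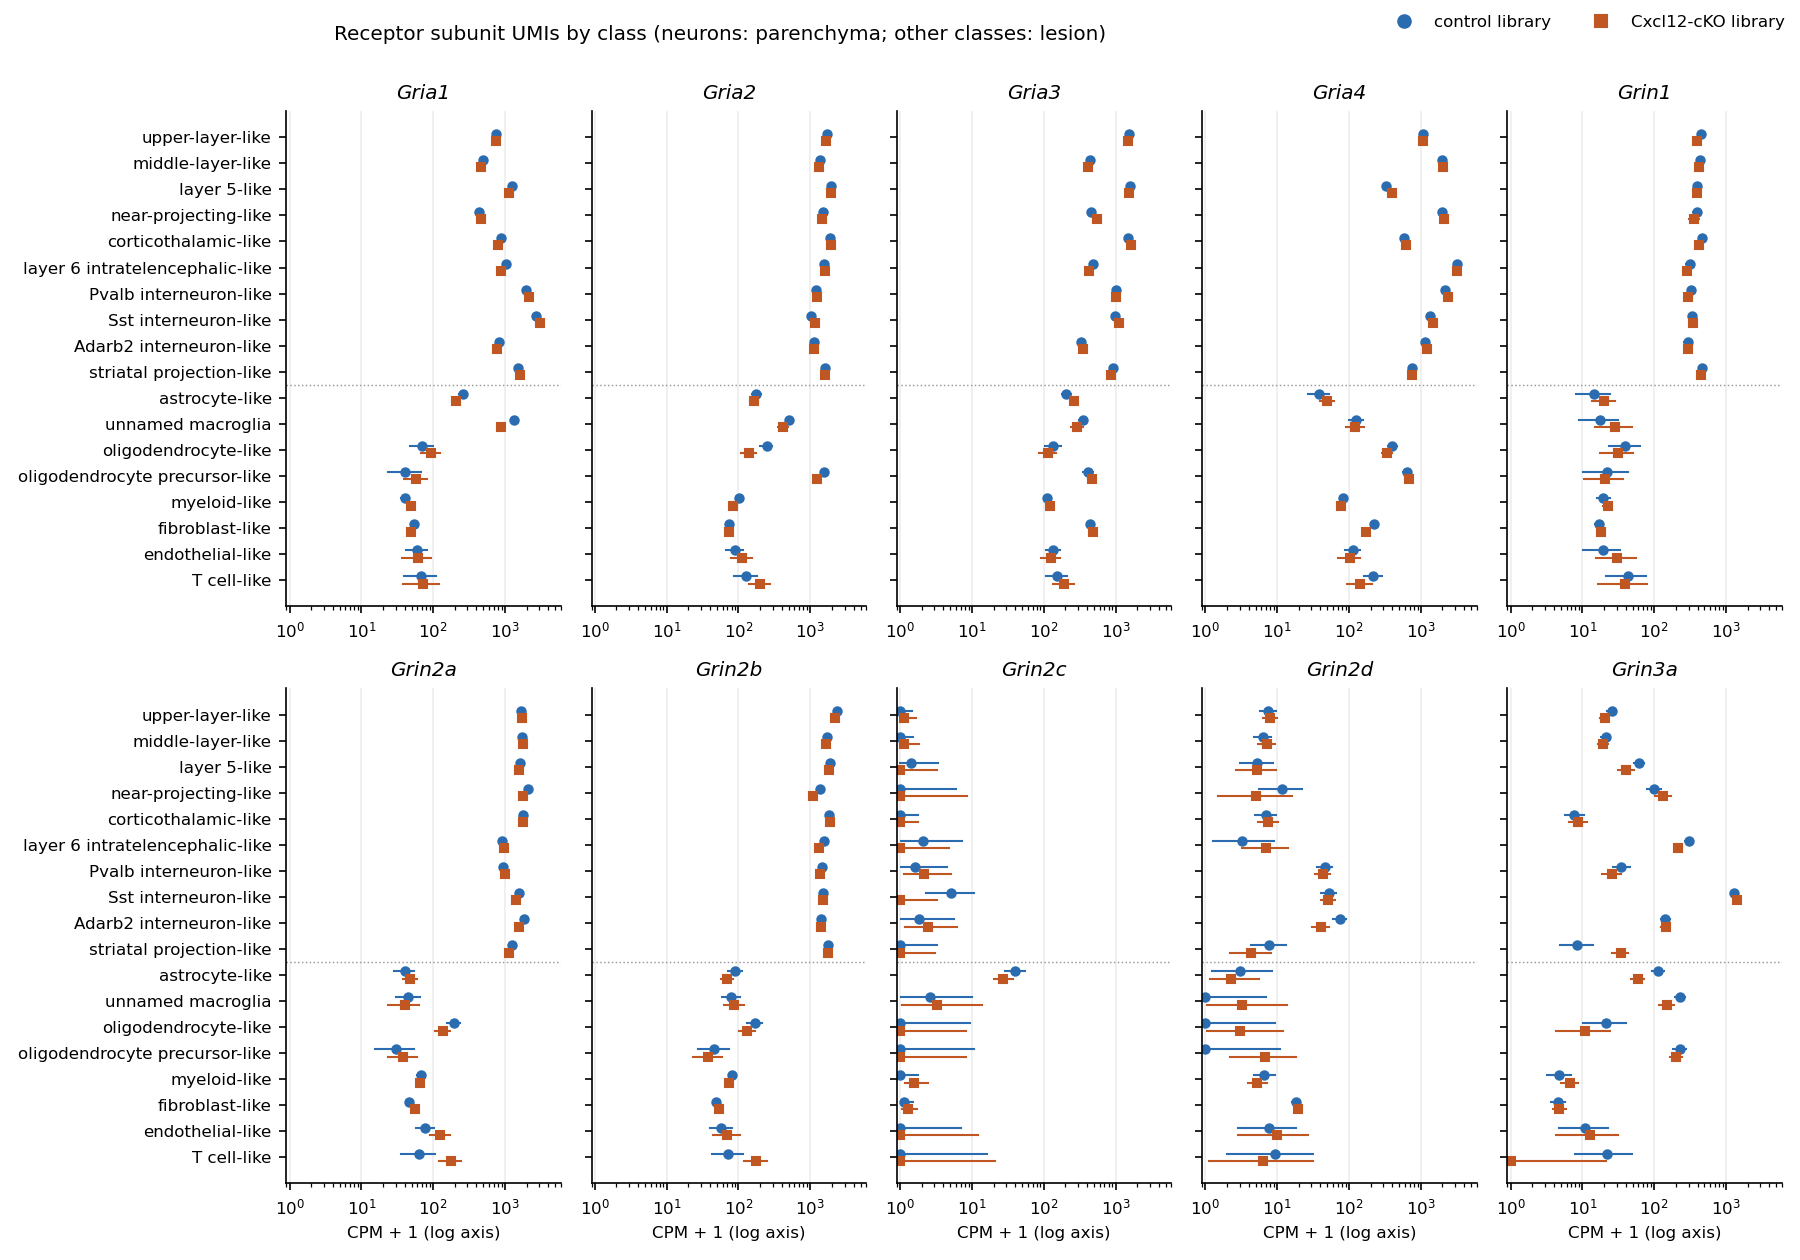
Level of each of the 10 genes in each class, as CPM + 1 on a log axis, for the control library (blue circles) and the Cxcl12-cKO library (orange squares). Neuron subtypes are from the parenchyma and other classes from the lesion, and bars are exact 95% Poisson intervals. Gria4 in layer-5-like nuclei (329 and 397 CPM) sits far left of layer 6 intratelencephalic-like nuclei (3139 and 3198 CPM), and Grin3a in Sst interneuron-like nuclei (1286 and 1405 CPM) stands right of every other class.

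Of the NMDA receptor genes found in all neurons, Grin1 varied least. It encodes the obligatory subunit and lay between 280 and 461 CPM in all 10 neuron subtypes and both libraries, and 5 of 9 neighbouring pairs overlapped. Striatal-projection-neuron-like nuclei (460 and 443 CPM) and corticothalamic-like nuclei (461 and 421 CPM) were at the upper end, and Adarb2 interneuron-like nuclei (290 and 296 CPM) near the lower end. Grin2a, the subunit of mature synapses, was highest in near-projecting-like nuclei, with 2108 and 1804 CPM, and lowest in layer 6 intratelencephalic-like nuclei, with 912 and 970, and Pvalb interneuron-like nuclei, with 945 and 995. Grin2b was highest in upper-layer-like nuclei, with 2327 and 2233 CPM, and lowest in near-projecting-like nuclei, with 1345 and 1078. Near-projecting-like nuclei therefore stood at opposite ends of the orders of Grin2a and Grin2b.

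The remaining NMDA receptor genes were restricted to few classes. Grin3a reached 1286 CPM (1223 to 1351) and 1405 CPM (1348 to 1464) in Sst interneuron-like nuclei, against 38.6 and 40.7 CPM in all excitatory-neuron-like nuclei. A Grin3a UMI was seen in 90.6% and 93.5% of Sst interneuron-like and in 22.6% and 24.0% of excitatory-neuron-like nuclei, and in 51.8% and 67.4% against 2.73% and 3.40% after every nucleus was thinned to 1000 UMIs. The next subtypes were layer 6 intratelencephalic-like nuclei (302 and 212 CPM of Grin3a), Adarb2 interneuron-like nuclei (142 and 144) and near-projecting-like nuclei (99.2 and 132), and corticothalamic-like nuclei had 6.75 and 7.79 CPM. Grin3a was also among the 10 leading genes of the Sst cluster, although it was left out of the clustering. Grin2d, a slow subunit known from interneurons, was 44.7 and 41.8 CPM in Pvalb, 51.5 and 50.3 in Sst and 73.9 and 39.2 in Adarb2 interneuron-like nuclei, against 6.99 and 7.05 CPM in excitatory-neuron-like nuclei. Grin2c, known from cerebellar granule cells and astrocytes, was at 0 to 4.09 CPM in every neuron subtype.

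Each subtype was also set against the other excitatory-neuron-like nuclei of the same matrix, and 9 members could be counted because Grin2c had too few UMIs. In upper-layer-like nuclei 2 members were past the fold the same way in both libraries, beside 11.7% of all genes tested: Gria3 was higher, by 0.65 and 0.63 on the log2 scale, and Grin3a lower, at −0.77 and −1.26. In middle-layer-like nuclei 4 members were past the fold (11.8% of all genes), with Gria4 higher (1.00 and 0.98) and Gria1 (−0.90 and −0.96), Gria3 (−1.47 and −1.58) and Grin3a (−1.09 and −1.31) lower. Layer-5-like nuclei had 1 such member (11.0% of all genes), Gria4 at −1.90 and −1.66. Gria3 and Gria4 thus departed in opposite directions in upper-layer-like and middle-layer-like nuclei and in middle-layer-like and layer-5-like nuclei, respectively.

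Among the deep and rarer excitatory subtypes, near-projecting-like nuclei (62 and 45 nuclei) had 4 of 9 members past the fold, beside 10.5% of all genes: Gria4 (0.76 and 0.80) and Grin3a (1.42 and 1.75) higher, Gria1 (−0.94 and −0.82) and Gria3 (−1.25 and −1.0) lower. Corticothalamic-like nuclei had 2 (14.8% of all genes), Gria4 at −1.11 and −1.08 and Grin3a at −2.65 and −2.53. Layer 6 intratelencephalic-like nuclei, 47 in each library, had 4 (9.76% of all genes): Gria4 (1.48 and 1.45) and Grin3a (3.22 and 2.56) higher, Gria3 (−1.20 and −1.39) and Grin2a (−0.87 and −0.76) lower. Gria4 and Grin3a were thus both above the other excitatory-neuron-like nuclei in the near-projecting-like and layer 6 intratelencephalic-like subtypes and both below them in corticothalamic-like nuclei.

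Pvalb interneuron-like nuclei had 4 of 9 members past the fold against the excitatory-neuron-like nuclei, where 24.0% of all genes were. Gria1 (1.24 and 1.43), Gria4 (0.89 and 0.99) and Grin2d (2.69 and 2.58) were higher and Grin2a (−0.80 and −0.71) lower. Sst interneuron-like nuclei had 3 (16.9% of all genes), all higher: Gria1 (1.69 and 1.90), Grin2d (2.89 and 2.84) and Grin3a (5.06 and 5.11). Adarb2 interneuron-like nuclei, a group that holds Vip and Lamp5 types, had 3 (17.3% of all genes), with Grin2d (3.41 and 2.49) and Grin3a (1.88 and 1.83) higher and Gria3 (−1.70 and −1.65) lower. Striatal-projection-neuron-like nuclei had 2 (19.2% of all genes), Gria1 higher (0.86 and 0.98) and Gria4 lower (−0.65 and −0.72). Grin2d was the gene past the fold in all 3 interneuron types, and Gria2, Grin1 and Grin2b were past it in none of the 10 neuron subtypes in both libraries.

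Subunit makeup was also read as shares of UMIs, which do not depend on how a sum is scaled. Gria2 made up 34.4% and 33.5% of AMPA subunit UMIs in parenchymal excitatory-neuron-like nuclei and 20.8% and 20.1% in interneuron-like nuclei. The low share belonged to Pvalb (18.8% and 17.9%) and Sst (17.1% and 17.2%) interneuron-like nuclei, while Adarb2 interneuron-like nuclei, with 32.8% and 32.1%, were in the range of the excitatory subtypes. Among excitatory subtypes it ran from 25.3% and 26.2% in layer 6 intratelencephalic-like to 39.3% and 38.5% in corticothalamic-like nuclei. The share of Gria4, a part of the same total and so not independent of it, ran from 6.44% and 7.91% in layer-5-like to 50.5% and 52.4% in layer 6 intratelencephalic-like nuclei. It did not simply mirror that of Gria2. Near-projecting-like and upper-layer-like nuclei had like Gria2 shares, 34.4% and 32.2% against 33.8% and 33.3%. Their Gria4 shares were 45.1% and 45.8% against 21.1% and 21.4%. Each share is compared between classes, regions, libraries or mice and is not read as the true balance of the genes. Genes can differ in how well 3′ priming captures them.

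Among Grin2a and Grin2b UMIs, Grin2b made up 53.7% and 53.5% in excitatory-neuron-like nuclei of the parenchyma. Near-projecting-like nuclei had the lowest share, 39.0% and 37.4%. The share was 57.9% and 56.3% in upper-layer-like, 60.6% and 57.8% in Pvalb interneuron-like and 58.9% and 61.2% in striatal-projection-neuron-like nuclei. Layer 6 intratelencephalic-like nuclei had 62.8% and 57.6%, so the top places changed between libraries.

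**Figure D2:**
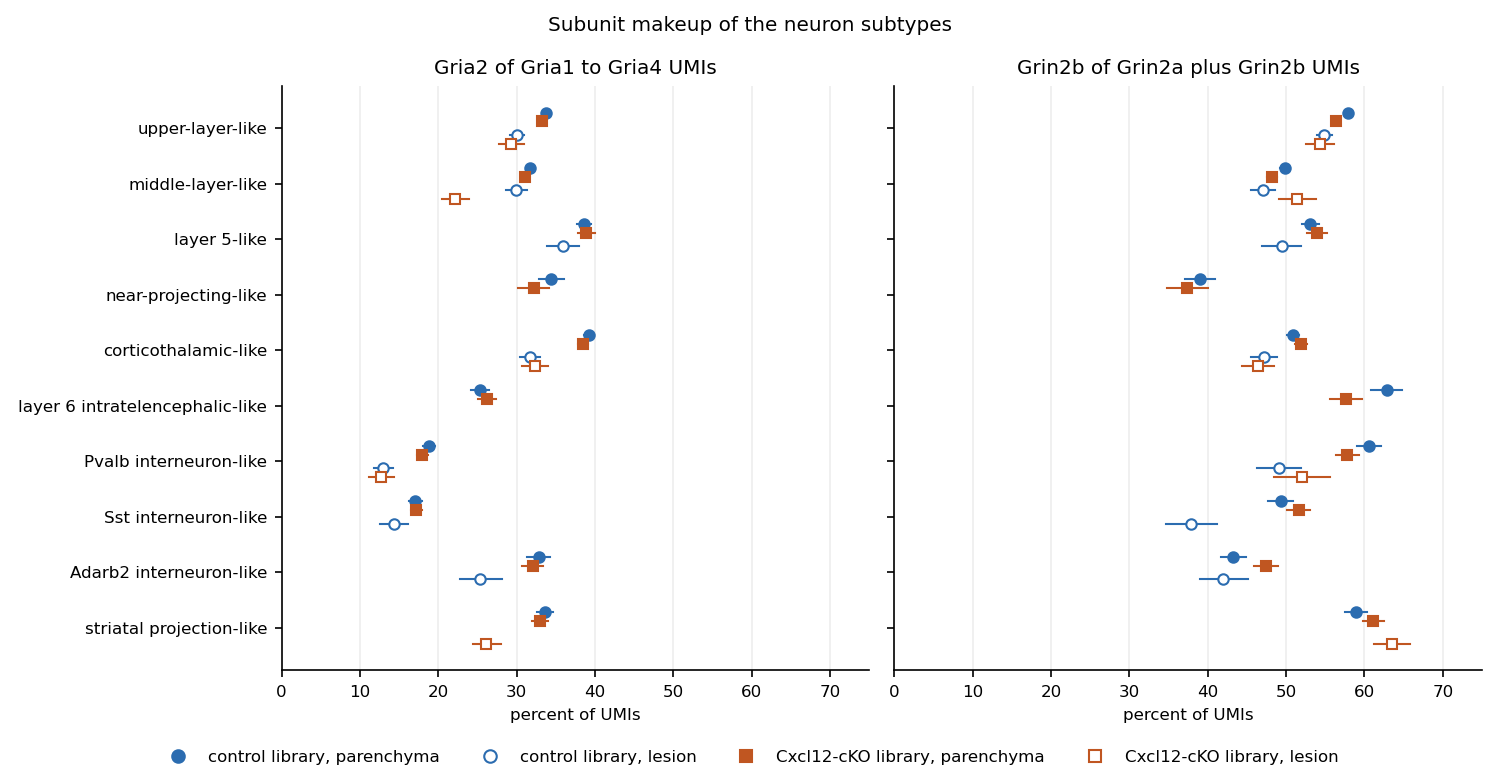
Share of Gria2 among the UMIs of the 4 AMPA subunit genes (left) and of Grin2b among Grin2a and Grin2b UMIs (right), in percent, by neuron subtype, for the control (blue circles) and Cxcl12-cKO (orange squares) libraries, with filled marks for parenchyma, open marks for lesion and exact 95% intervals. Pvalb and Sst interneuron-like nuclei lie lowest on the left, at 17.1% to 18.8% in the parenchyma, and on the left the open marks lie left of the filled ones in each of the 12 pairs.

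Of the classes that are not neurons, oligodendrocyte-precursor-like nuclei of the lesion (76 and 104 nuclei) had a level of Gria2 near that of neurons. Their Gria2 was 1568 CPM (1444 to 1700) and 1224 CPM (1130 to 1324), at −0.04 and −0.36 against parenchymal excitatory-neuron-like nuclei on the log2 scale. It made up 59.1% and 50.5% of their AMPA subunit UMIs. Their Gria4 was 636 and 678 CPM, their Gria3 410 and 464, their Gria1 only 39.9 and 56.5, and their Grin3a 226 and 201. In this comparison 7 of 9 members were past the fold in both libraries, beside 27.0% of all genes, 6 of them lower and only Grin3a higher (2.56 and 2.31). These cells are known to receive synapses from neurons and to carry AMPA receptors. When no barcode was filtered out, 321 of the 339 nuclei of an unnamed macroglial cluster, described below and high in Gria1, joined this class. The low Gria1 is thus given for the main clustering only.

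Astrocyte-like nuclei of the lesion (227 and 314 nuclei) had 262 and 205 CPM of Gria1, 176 and 164 of Gria2, 206 and 261 of Gria3 and 36.9 and 49.1 of Gria4. Against parenchymal excitatory-neuron-like nuclei 7 of 9 members were past the fold, all lower, beside 41.7% of all genes. The reference for every lesional class was parenchymal, so class and region differ together in these comparisons. Parenchymal astrocyte-like nuclei had far more Gria2, as given below. Grin2c was 39.0 and 26.4 CPM in the lesional astrocyte-like nuclei and at most 2.29 CPM in the other lesional classes that are not neurons. The astrocyte class was the one in which Grin2c was detected above a few UMIs.

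A macroglial cluster with 200 and 138 nuclei in the lesion met no naming rule and was led by genes that included Gria1 itself. It had 1315 and 883 CPM of Gria1, above the 828 and 810 CPM of excitatory-neuron-like nuclei, with 507 and 416 of Gria2, 124 and 121 of Gria4 and 227 and 149 of Grin3a. In this cluster 7 of 9 members were past the fold, 6 lower and Grin3a higher, beside 29.8% of all genes. Its female and male nuclei had 1583 and 1100 CPM of Gria1 in the control and 894 and 972 in the Cxcl12-cKO library.

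Fibroblast-like nuclei of the lesion had 434 and 485 CPM of Gria3 and 219 and 174 of Gria4, and at most 73.0 CPM of any other member. Those of the parenchyma had less Gria3, 152 and 220 CPM, and more Gria4, 295 and 502 CPM. In the lesion all 9 members counted were past the fold against excitatory-neuron-like nuclei, where 66.6% of all genes were, with 8 lower and Grin2d higher (1.30 and 1.39, from 17.2 and 18.5 CPM). Excitatory marker genes, which fibroblasts should lack, summed to 75.0 and 77.5 CPM in them, against 1548 and 1467 in parenchymal excitatory-neuron-like nuclei. The log2 ratio of Gria3 to its excitatory-neuron-like level was −1.32 and −1.17. Myeloid-like nuclei of the lesion stayed at or below 121 CPM for every member, with 98.9 and 97.2 CPM of the excitatory markers. In the parenchyma, where those markers summed to 502 and 273 CPM in 32 and 46 myeloid-like nuclei, they reached 759 and 91.1 CPM of Grin2b and 444 and 212 CPM of Gria2. No member passed 135 CPM in lesional endothelial-like nuclei or 217 CPM in T-cell-like nuclei. Oligodendrocyte-like nuclei of the lesion had 399 and 337 CPM of Gria4 and at most 245 of any other member. What part free RNA had in these low levels was not tested.

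In the neurons of the lesion matrices, the share of Gria2 was lower than in the parenchyma in every subtype that could be read. It was 34.4% and 33.5% in the parenchyma and 29.8% and 28.9% in the lesion for excitatory-neuron-like nuclei, and 20.8% and 20.1% against 15.7% and 15.6% for interneuron-like nuclei. The share was lower in the lesion in each of the 12 subtype-by-library pairs with enough nuclei, with a median difference of −5.54 percentage points and a range of −8.92 to −1.69. The same held in every mouse that could be read. In excitatory-neuron-like nuclei of the control library it was 34.8% against 30.5% in the female and 33.7% against 29.0% in the male, and in the Cxcl12-cKO library 33.7% against 29.5% and 32.8% against 27.6%. The difference was −4.60 ± 0.488 points (SD, n = 4 mice), and an exact two-sided permutation test gave p = 0.125, the smallest that 4 pairs allow (0.125 also after Benjamini-Hochberg adjustment over both shares tested). In interneuron-like nuclei it was 21.2% against 15.1% in the control female, 21.0% against 16.2% in the control male and 20.4% against 15.6% in the Cxcl12-cKO female, and the Cxcl12-cKO male had too few lesional interneuron-like nuclei. In bulk sums of nuclei, loss of some cells of a type and less RNA per cell cannot be told apart. The lesion matrices held 8 and 47 striatal-projection-neuron-like nuclei. How much adjoining tissue was dissected with each lesion was not tested.

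The level of Gria2 followed the same direction. It was lower in the lesion in all 12 pairs, with a median log2 ratio of −0.31 and a range of −0.55 to −0.05, and after the median of all genes in each pair was subtracted it was still lower in all 12 (median −0.23, −0.58 to −0.02). In all excitatory-neuron-like nuclei together it was 1615 and 1570 CPM in the parenchyma and 1419 and 1387 in the lesion, a log2 ratio of −0.19 and −0.18, where the median of all genes was itself −0.17 and −0.15. In interneuron-like nuclei it was 1118 and 1170 CPM against 851 and 833, at −0.39 and −0.49, with the median of all genes at −0.06 and −0.03. No Gria2 ratio of the excitatory-neuron-like or interneuron-like sums was past the fold.

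Grin2a moved the other way, being higher in the lesion in 11 of 12 pairs (median 0.18, −0.06 to 0.64). It was 1651 and 1630 CPM in parenchymal and 1966 and 1936 in lesional excitatory-neuron-like nuclei. Interneuron-like nuclei had 1401 and 1304 CPM in the parenchyma and 1783 and 2261 in the lesion, and the last of these was past the fold in the Cxcl12-cKO library. Grin2b was higher in 6 and lower in 6 pairs, and its share of Grin2a and Grin2b UMIs was lower in the lesion in 10 of 12 (median −3.34 points, −11.5 to 3.22). In excitatory-neuron-like nuclei that share was lower in 4 of 4 mice, by −3.48 ± 0.925 points (SD), also with p = 0.125 in the exact two-sided permutation test (adjusted 0.125). In interneuron-like nuclei it was 51.0% and 52.3% in the parenchyma and 43.6% and 38.7% in the lesion, a wider gap than that of their Gria2 share. The mice differed, read here as shares of Grin2a to Grin2d UMIs. Values were 47.9% against 46.9% in the control female, 53.9% against 37.4% in the control male and 54.3% against 42.9% in the Cxcl12-cKO female. The control female thus had little of the gap. Grin1 was lower in all 12 pairs, but its median was only −0.14, and it was above the median of all genes in 1 pair. Gria1 was higher in 9 of 12 pairs, and Gria3 and Gria4 in 7 each. In lesional middle-layer-like nuclei of the Cxcl12-cKO library (42 nuclei) Gria4 was 2863 CPM, above the 1984 to 2099 of the other 3 matrices, and Gria2 had a share of 22.2% against 29.97% in the control.

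By the fold rule, 2 of 9 members were lower in lesional excitatory-neuron-like nuclei in both libraries, beside 13.8% of all genes, of which 1944 were lower and 81 higher. Grin2d was 6.99 and 7.05 CPM in the parenchyma and 1.35 and 1.05 in the lesion (−2.30 and −2.53). Its lesional levels, and so these ratios, rest on very few UMIs. Among lesional nuclei assigned to a sex, the control library had 4 Grin2d UMIs in female and 4 in male nuclei. The Cxcl12-cKO library had 2 and 0. Grin3a was 38.6 and 40.7 against 21.3 and 19.5 CPM (−0.85 and −1.05). After every nucleus was thinned, no member was past the fold in both libraries. Within subtypes Grin2d was lower in 5 of 6 and Grin3a in 6 of 9 pairs with enough UMIs. No member was past the fold in interneuron-like nuclei in both libraries, beside 7.43% of all genes.

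**Figure D3:**
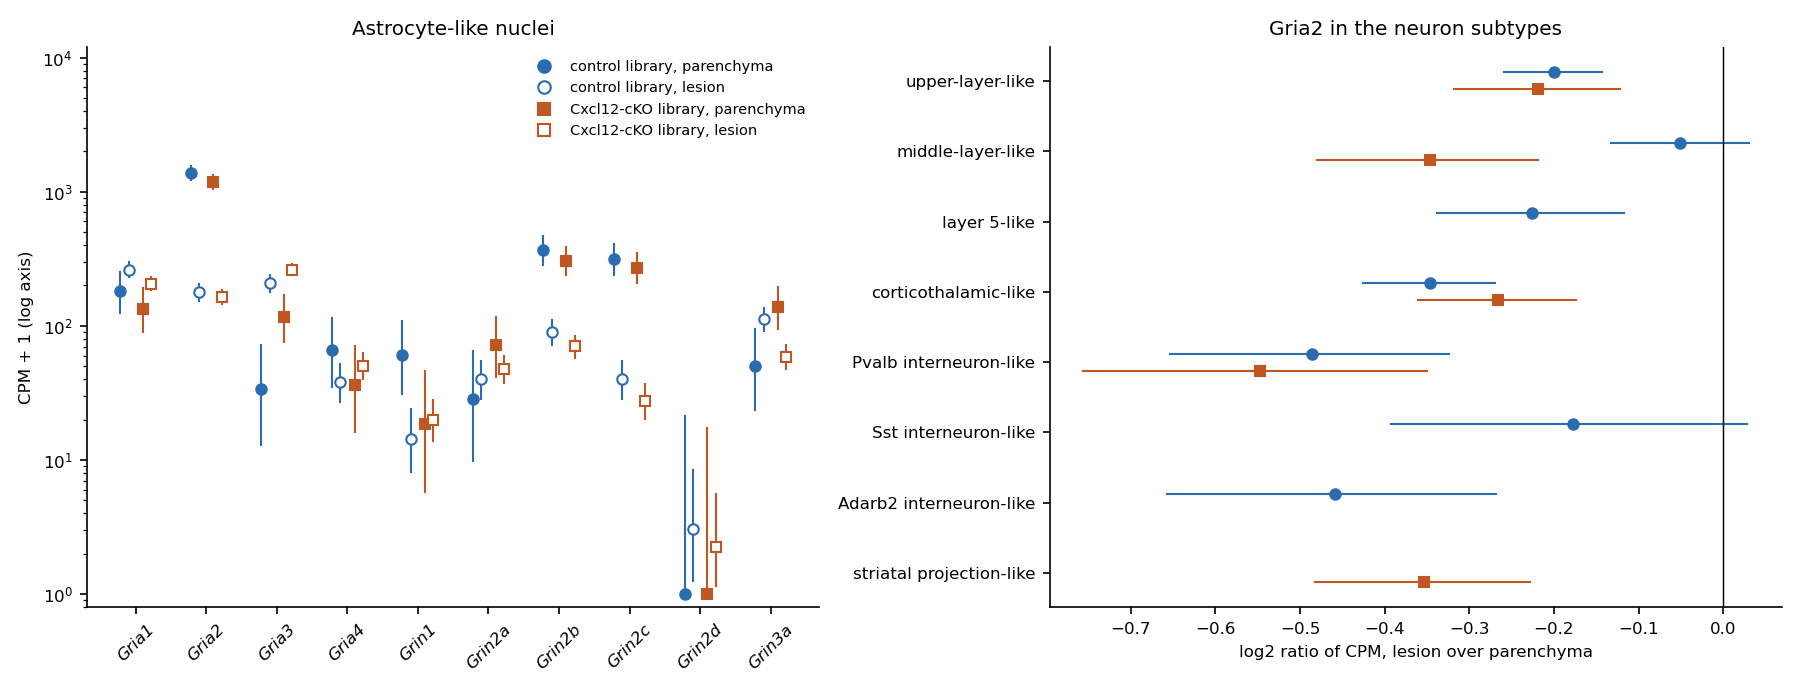
Left, levels of the 10 genes in astrocyte-like nuclei as CPM + 1 on a log axis, parenchyma filled and lesion open, control library blue circles and Cxcl12-cKO library orange squares, with exact 95% intervals. Right, log2 ratio of Gria2 CPM, lesion over parenchyma, in 12 subtype-by-library pairs with 95% counting intervals: all 12 points lie left of 0, from −0.55 to −0.05, and on the left Gria2 falls from 1383 and 1183 CPM to 176 and 164.

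Astrocyte-like nuclei differed between regions far more than neurons did. Gria2 was 1383 CPM (1218 to 1564) and 1183 CPM (1045 to 1333) in the 37 and 44 parenchymal nuclei and 176 and 164 CPM in the lesion, a log2 ratio of −2.97 and −2.85. Grin2c was 316 and 269 CPM against 39.0 and 26.4 (−3.01 and −3.34), and Grin2b 365 and 305 against 89.2 and 69.3 (−2.03 and −2.14). Gria3 went up, from 32.7 and 115 CPM to 206 and 261 (2.55 and 1.16). These 4 of the 6 members counted were past the fold in both libraries, beside 25.0% of all genes. Gria1 was 180 and 132 CPM against 262 and 205. The share of Gria2 among AMPA subunit UMIs was 83.3% and 80.7% in parenchymal and 25.9% and 24.2% in lesional astrocyte-like nuclei.

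The astrocyte-like nuclei of the 2 regions were largely different subclusters. One, led by genes that included Slc7a10 and Gpc5, held 89.2% and 95.5% of the parenchymal and 23.8% and 6.05% of the lesional nuclei. The rest belonged to one led by Tnfsf11, Ptx3, Chil1 and Steap4. Within the former, in the control library, Gria2 was 1553 CPM in 33 parenchymal and 459 CPM in 54 lesional nuclei, and Grin2c 351 and 100 CPM, so both were lower in the lesion there too. The Cxcl12-cKO library had 19 lesional nuclei of it, too few to read. Excitatory markers summed to 32.7 and 83.9 CPM in the parenchymal astrocyte-like nuclei, with no UMI of Slc17a7 or Slc17a6, the vesicular glutamate transporters.

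Between the library labelled Cxcl12-cKO and the control, the members differed little in neurons. In parenchymal excitatory-neuron-like nuclei none of 9 members was past the fold, beside 2.81% of all genes. Their log2 ratios ran from −0.10 to 0.08 with a median of −0.02. In interneuron-like nuclei of the parenchyma none of 9 was past it, beside 2.75% of all genes, with ratios from −0.34 to 0.23 and a median of 0.07. In lesional astrocyte-like nuclei 1 of 8 was, beside 5.86% of all genes: Grin3a was 111 CPM in the control and 57.9 in the Cxcl12-cKO library (−0.93). Female and male nuclei of the control had 73.1 and 156 CPM of Grin3a there and those of the Cxcl12-cKO library 69.8 and 53.2, so the female nuclei of the libraries were close and the males far apart.

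For several members the mice of a library differed by more than the libraries did. In parenchymal excitatory-neuron-like nuclei Gria1 was 754 CPM in the female and 918 in the male of the control and 736 and 905 in those of the Cxcl12-cKO library. Grin2b was 1724 and 2128 CPM against 1725 and 2037, and Grin2a 1546 and 1770 against 1511 and 1773. For these 3 genes the male nuclei were higher in both libraries by more than the libraries differed, and Gria2 (1651 and 1575, against 1621 and 1505) and Gria4 (1263 and 1085, against 1332 and 1110) were lower in the male nuclei of both. With 1 mouse of each sex in a library, sex and animal cannot be told apart. The direction between genotypes was the same in both sexes for 6 of 10 members in excitatory-neuron-like and 5 of 9 in interneuron-like nuclei.

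A few single values, picked from all members and neuron subtypes, stood apart between the libraries. Of all genes tested between genotypes in the parenchyma, 4.7% were past the fold in Adarb2 interneuron-like nuclei. The share was 5.29% in striatal-projection-neuron-like and 3.71% in layer-5-like nuclei. Grin2d in Adarb2 interneuron-like nuclei was 73.9 against 39.2 CPM, with 91.5 and 55.2 in the female and male nuclei of the control and 30.4 and 45.2 in those of the Cxcl12-cKO library, which did not overlap. Grin3a in striatal-projection-neuron-like nuclei was 7.36 against 32.9 CPM (log2 2.11), but the female nuclei had 1.61 against 31.8 CPM and the male nuclei 15 against 11.4. In layer-5-like nuclei it was 60.4 against 39.6 CPM (−0.60), with 83.7 against 30.6 CPM in female and 44.7 against 56.9 in male nuclei. The mice of the libraries thus went opposite ways for Grin3a in both classes. Grin3a in Sst interneuron-like nuclei, where it is abundant, was 1451 and 1075 CPM in the female and male of the control and 1358 and 1448 in those of the Cxcl12-cKO library, which overlapped.

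**Figure D4:**
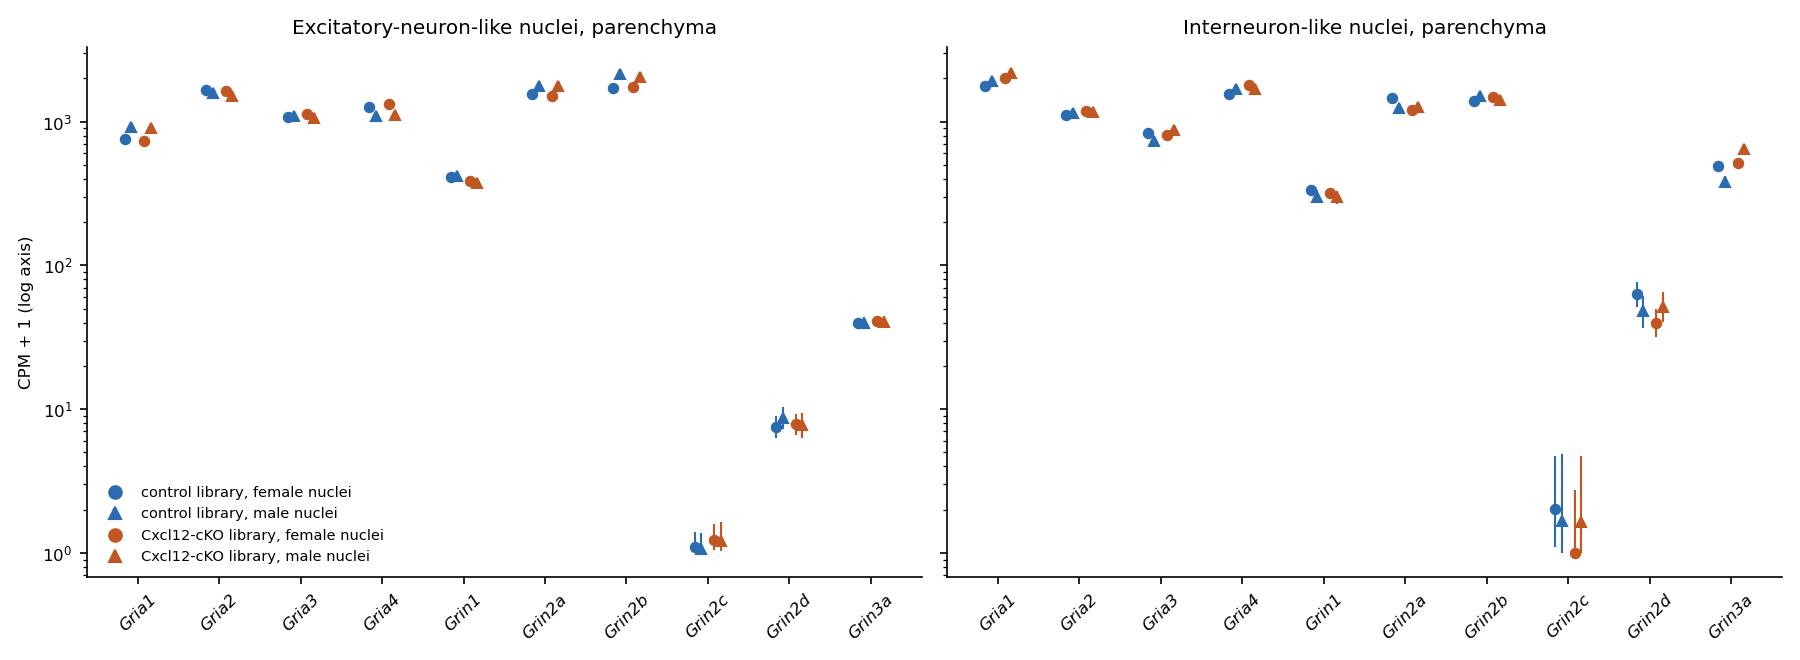
Levels of the 10 genes in parenchymal excitatory-neuron-like (left) and interneuron-like (right) nuclei, as CPM + 1 on a log axis, for female (circles) and male (triangles) nuclei of the control (blue) and Cxcl12-cKO (orange) libraries, with exact 95% Poisson intervals. In excitatory-neuron-like nuclei the male points for Gria1 (918 and 905 CPM) lie above the female points (754 and 736 CPM) in both libraries, and the libraries lie close together.

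The proteins that accompany these receptors were taken as a list of 33 genes, of which all but Grin3b had enough UMIs for the class comparisons. The list holds the TARP and other auxiliary subunits, scaffolds, kinases, synaptic pentraxins, the editing enzyme and serine racemase. Against other excitatory-neuron-like nuclei, upper-layer-like nuclei had 5 of 32 higher and 4 lower, middle-layer-like 1 and 5, layer-5-like 2 and 7, near-projecting-like 4 and 8, corticothalamic-like 1 and 5 and layer 6 intratelencephalic-like 3 and 2. All-gene shares past the fold in these 6 classes were 9.76% to 14.8%. Of the interneuron types, Pvalb interneuron-like nuclei had 4 higher and 15 lower (24.0% of all genes past the fold), Sst 6 and 14 (16.9%) and Adarb2 5 and 10 (17.3%). Striatal-projection-neuron-like nuclei had 6 and 8 (19.2%). In all 3 interneuron types the pentraxin genes Nptx1, Nptx2 and Nptxr and the kinase gene Camk2a were among the lower, and in Sst interneuron-like nuclei the TARP genes Cacng4, Cacng5, Cacng7 and Cacng8 were among the higher.

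Several auxiliary genes differed between subtypes as strongly as the subunits did, though some were higher in more than the subtypes named here. Grip1, a scaffold that binds GluA2 and GluA3, was higher in Pvalb (3.45 and 3.67 on the log2 scale), Sst (3.58 and 3.76) and Adarb2 interneuron-like nuclei (3.74 and 4.02). Nptx2, a secreted pentraxin that clusters AMPA receptors on interneurons, was lower in Pvalb interneuron-like nuclei themselves (−5.24 and −5.10). Cacng2, the gene of the TARP stargazin, was higher there (1.26 and 1.28). Shisa6, an auxiliary subunit, was higher in layer 6 intratelencephalic-like (3.80 and 3.47) and Sst interneuron-like nuclei (2.77 and 3.01), which were also the 2 neuron subtypes highest in Grin3a. Cacng5 was higher in near-projecting-like nuclei (3.55 and 3.25), Cacng8 in layer-5-like (1.44 and 1.31), Cnih3 in middle-layer-like (1.46 and 1.28) and Nptx1 in corticothalamic-like nuclei (1.44 and 1.41). Cacng5 was also higher in Sst (1.86 and 1.94) and Adarb2 interneuron-like nuclei (2.61 and 3.14), and Cacng8 in Sst interneuron-like nuclei. Shisa6 was also higher in Adarb2 interneuron-like nuclei (1.85 and 1.85). The editing enzyme gene Adarb1 was higher in near-projecting-like nuclei (1.11 and 1.21).

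In the lesion, 3 of 32 list genes were higher and 21 lower in astrocyte-like nuclei (41.7% of all genes past the fold), 3 and 19 in the unnamed macroglial (29.8%), 2 and 19 in oligodendrocyte-precursor-like (27.0%) and 1 and 23 in fibroblast-like nuclei (66.6%). Cacng4, a TARP gene, was among the higher ones in each of these 4 classes but not in oligodendrocyte-like nuclei (2.27 and 5.98 CPM, against 7.07 and 5.53 in excitatory-neuron-like nuclei), at 5.35 and 5.65 in the unnamed macroglial nuclei, 5.39 and 5.63 in oligodendrocyte-precursor-like and 2.62 and 2.30 in fibroblast-like nuclei. In neurons it was higher in striatal-projection-neuron-like nuclei (3.94 and 4.30). Cacng2 in oligodendrocyte-precursor-like nuclei was at −6.32 and −6.59.

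Between regions, 2 of 32 list genes were past the fold in excitatory-neuron-like nuclei, or 6.25% beside 13.8% of all genes, both lower in the lesion: Nptxr (−0.81 and −1.14), a pentraxin receptor, and Cnih2 (−1.06 and −0.75), an AMPA receptor auxiliary subunit. In astrocyte-like nuclei, beside 25.0% of all genes, 5 of 16 were higher in the lesion, among them Shank2 (1.03 and 2.64), Adarb1 (1.32 and 2.17), Shisa6 (1.33 and 1.71) and Dlg2 (0.84 and 1.13), and Shisa9 (−2.51 and −1.64) and Grip1 (−2.18 and −1.31) were lower. Between genotypes none of 32 was past the fold in parenchymal excitatory-neuron-like nuclei, beside 2.81% of all genes, and their median log2 ratio was −0.07.

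**Figure D5:**
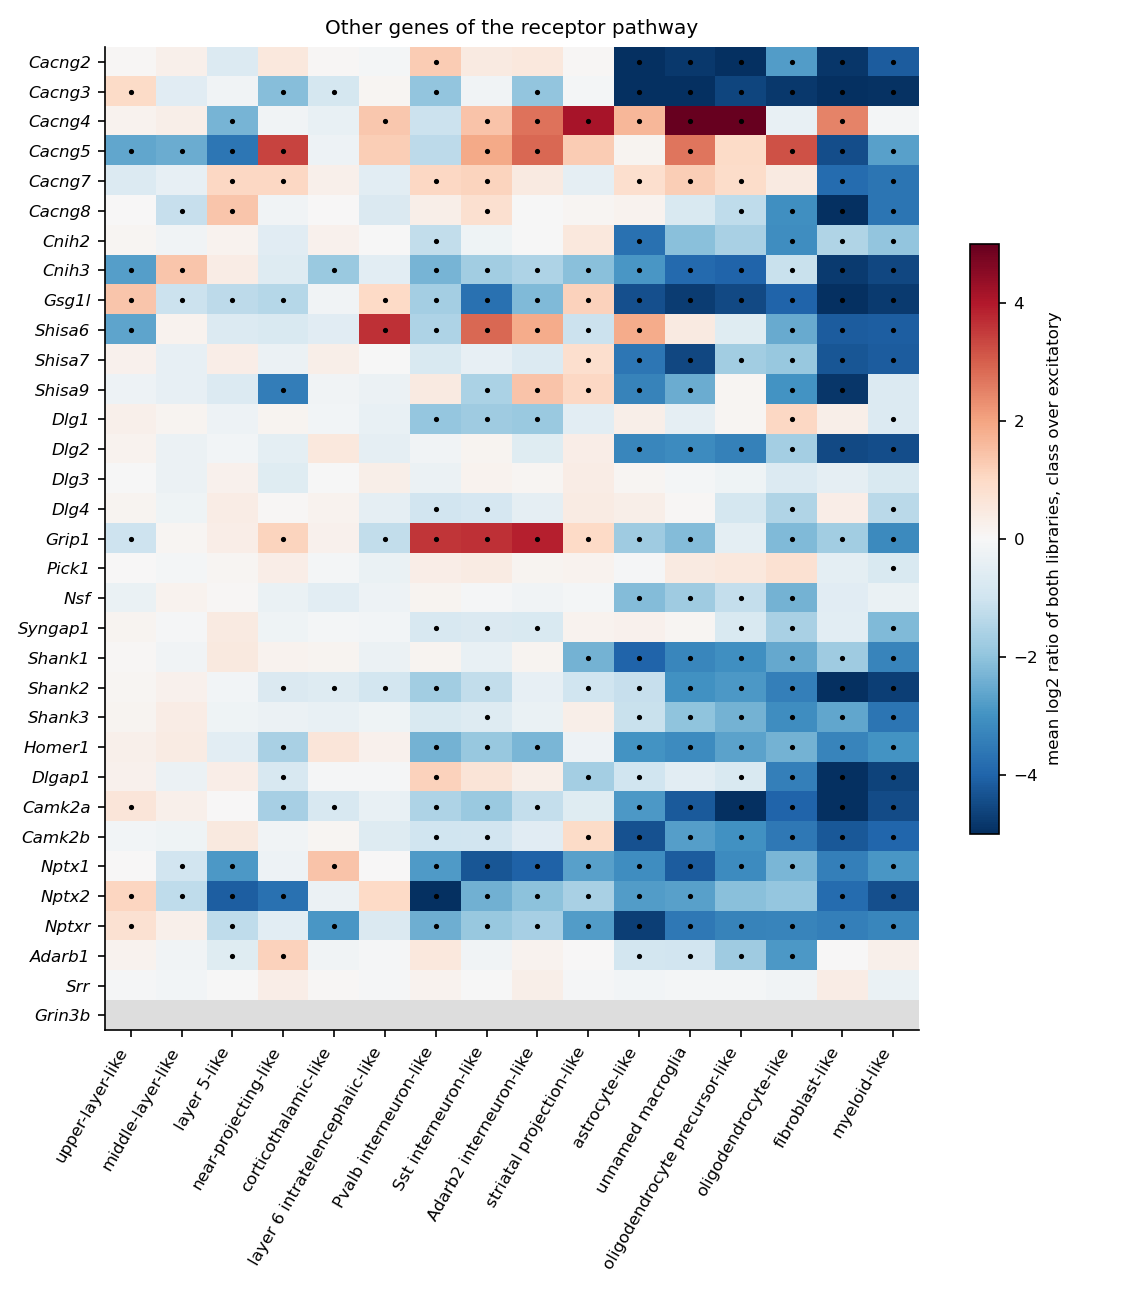
Mean over both libraries of the log2 ratio to parenchymal excitatory-neuron-like nuclei for the 33 accompanying genes (rows) in 16 classes (columns), with the colour scale limited to ±5 and grey where UMIs were too few. Dots mark genes past the fold the same way in both libraries. Grip1 stands out as higher in Pvalb, Sst and Adarb2 interneuron-like nuclei, but it is lower in upper-layer-like, astrocyte-like, fibroblast-like and several other classes. Cacng4 stands out as higher in striatal-projection-neuron-like, unnamed macroglial and oligodendrocyte-precursor-like nuclei and is lower in layer-5-like nuclei. Nptx2 is lower in Pvalb interneuron-like nuclei (−5.24 and −5.10).

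The genes most alike to each member were read over 36 class-by-library sums from 18 classes among 12777 genes, by Pearson's r of log2(CPM + 1). This is a description only, over sums that share libraries and depth. Neuron subtypes came from the parenchyma and the other classes from the lesion, so a high r can reflect that split alone. Grin1 and Grin2b were most alike to each other (r = 0.985), and both were followed by Syt1, the synaptic vesicle calcium sensor. Grin2a was most like A230006K03Rik (0.989), Gria2 like Scg5 (0.962), Kcnd2 (0.957) and Grid1 (0.956), and Gria1 like Snph (0.929) and Nrxn3 (0.918). Gria4 was most like Dcx (0.896), Gria3 like Dok6 (0.861), Grin2c like Nwd1 (0.837), Grin3a like Dner (0.815) and Shisa6 (0.808), and Grin2d, with few UMIs, like Ggact (0.790).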

How the data were processed

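Nuclei of 1 female and 1 male mouse per genotype were multiplexed by region with CellPlex tags and sequenced with 10x 3′ v3.1 chemistry. The authors aligned reads to GRCm39 with Cell Ranger 9.0.0, per the submitters' processing notes, and deposited UMI counts per gene and nucleus, split by tag into 4 matrices. These counts were used as deposited. The tag libraries were not analysed here.

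Barcodes in the outer 2.5% tails of UMIs or genes, or the upper 2.5% of mitochondrial share, were removed. No doublet caller was run, and doublets were not removed. Counts scaled to 10000 per nucleus and logged (3000 variable genes, the receptor genes left out, 30 components, 20 neighbours, Leiden resolution 0.25) were clustered with scanpy 1.11.5 and igraph 0.11.9 in Python 3.11.15, and neurons and glia were clustered again with 2000 genes. A class was named where at least 3 markers were seen in 10% of nuclei and exceeded the others by 0.5 (log2, 1 for subtypes). These naming limits were set after the clusters were seen. UMIs were then summed per class, region and library where at least 20 nuclei were present, with 0.5 added to each sum in a ratio. The excitatory reference left out the subtype's own nuclei, so that no UMI stood on both sides. Intervals were exact (SciPy 1.17.1).

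All 10 members were named, with pathway genes limited to those past the fold in both libraries and the 4 most extreme each way, and the 3 genes most alike. Members and lists were chosen with earlier results of these data known. The within-mouse test of the shares was added after the values were seen, on mice told apart by Xist and Y-linked UMIs, which share a library within a genotype. The ratio and interval code was checked on simulated counts. Alternatives were all barcodes, resolution 0.5, other scalings, thinning to 1000 UMIs, removal of nuclei with UMIs of both sexes, neurons assigned by their own transmitter-gene UMIs, the subtype's own nuclei in the reference, each sex alone, medians over subtypes, a single astrocyte-like subcluster, equal weight per nucleus and no UMI minimum.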

Additional observations from a re-analysis of the deposited data

Results flagged for a closer look

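For 3 members the lesion and parenchyma of one class differed in opposite directions in the 2 libraries. In each case the difference between libraries was not tested. Grin3a in astrocyte-like nuclei was higher in the lesion of the control library (log2 1.10) and lower in that of the Cxcl12-cKO library (−1.25), a difference of −2.36, from 49.0 and 137 CPM in the parenchyma and 111 and 57.9 CPM in the lesion. The parenchymal sums rest on 37 and 44 nuclei.

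In oligodendrocyte-like nuclei Gria3 was at 2.31 in the control and −1.90 in the Cxcl12-cKO library, a difference of −4.21, and Grin2a at 2.33 and −1.63, a difference of −3.96. The parenchyma held 25 and 32 oligodendrocyte-like nuclei, with Gria3 at 21.8 and 425 CPM and Grin2a at 32.8 and 420 CPM. Their sums held 91525 and 195143 UMIs of all genes, so the control values of both genes rest on very few UMIs. Excitatory marker genes in these parenchymal nuclei summed to 43.7 CPM in the control and 405 CPM in the Cxcl12-cKO library. The part of these markers in the result was not tested.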

How the results depend on the processing

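Of the recomputed counts and shares 185 kept within the tolerance and 31 moved, and of the other values 2145 kept within it, 842 moved and 4 turned direction. No paired analysis of the genotypes was possible because each had 1 library, so that genotypes share no pairs and no library can be left out. The regions are paired within mice, as in the test of the shares above. Nuclei of each sex alone leave out the other mouse of each library.

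Between genotypes, the count of members past the fold in excitatory-neuron-like nuclei (0) was 1 with no UMI minimum, and in interneuron-like nuclei (0) it was 1 in female and 1 in male nuclei. In lesional astrocyte-like nuclei (1) it was 2 with all barcodes, 2 in male nuclei, 2 with each nucleus weighted alike and 0 after thinning. Between regions, the excitatory-neuron-like count (2) was 1 in male nuclei, 1 with nuclei weighted alike, 1 as the median over subtypes and 0 after thinning, and the astrocyte-like count (4) was 2 after thinning. Among subtypes, the upper-layer-like count (2) was 0 with all barcodes, 0 in male nuclei, 1 after thinning and 1 with its own nuclei in the reference. The layer-5-like count (1) was 4 with all barcodes and 2 in female nuclei, and the layer 6 intratelencephalic-like count (4) was 2 at resolution 0.5. Fewer UMIs remain after thinning, and fewer nuclei with one sex; otherwise the cause was not tested.

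The Gria2 share of excitatory-neuron-like nuclei, 33.9% over both libraries, was 33.3% in male nuclei and 34.7% after thinning. That of Pvalb interneuron-like nuclei (18.4%) was 19.0% in female and 17.1% in male nuclei, and that of Sst interneuron-like nuclei (17.1%) was 18.6% in male nuclei and 16.2% after thinning. The Grin2b share of excitatory-neuron-like nuclei (53.6%) was 52.8% with all barcodes, 53.0% in female and 54.0% in male nuclei and 53.0% after thinning, and that of Adarb2 interneuron-like nuclei (45.4%) was 50.1% in female and 40.7% in male nuclei.

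The 4 values that turned were Grin3a between regions in astrocyte-like nuclei of the Cxcl12-cKO library (0.13 after thinning), Grin3a in layer-5-like nuclei of the control (−0.16 at resolution 0.5), Grin3a in striatal-projection-neuron-like nuclei of the control (0.041 with all barcodes) and Grin2d in astrocyte-like nuclei of the Cxcl12-cKO library (0.036 after thinning). With trimmed-mean scaling Gria2 between regions in excitatory-neuron-like nuclei was −0.07 and −0.10, and Gria1 (0.07 and 0.03) and Grin1 of the control (0.01) turned above 0, though none was past the fold. The astrocyte-like region comparison gave no value at resolution 0.5, where 69 of 81 parenchymal nuclei fell into an unnamed cluster, nor in one sex or one subcluster, for lack of nuclei. With all barcodes, 321 of the 339 unnamed macroglial nuclei joined the oligodendrocyte-precursor-like class.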
